A study of Homo sapiens with 8 samples.

Results

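In human embryonal carcinoma cells 10 genes for transcription factors of the early lineages were followed, namely the AP-2 genes TFAP2A, TFAP2B and TFAP2C, the GATA genes GATA2, GATA3, GATA4 and GATA6, and CDX2, EOMES and HAND1. They were found by their gene symbol, and all 10 were among the 18732 genes tested. NTera2/D1 is an established line from a human testicular teratocarcinoma that keeps stem-cell genes on and leaves that state when given retinoic acid (RA). Cells received a small interfering RNA (siRNA) against RNF20, the ligase that places a single ubiquitin on histone H2B, or, as the control, one against LacZ, a gene of bacteria. They were kept for 72 h in DMSO, the solvent, or in 10 µM RA. The groups DMSO/siLacZ, RA/siLacZ, DMSO/siRNF20 and RA/siRNF20 held 2 arrays each, 1 numbered GF117 and 1 numbered GF120, so that all cells went through an siRNA and the same 72 h. The labels call the cultures biological duplicates and do not say when the siRNA was given. Expression was read on Affymetrix exon arrays, on which each row (a probe set) reads a short stretch of a transcript, and each gene was summarised by the median log2 intensity of those of its rows that were brighter than the median row.

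Of the 8 arrays, the GF117 array of RA/siLacZ stood apart. Its gene values correlated with those of the other arrays at r = 0.14 to 0.24, against 0.91 to 0.97 among the other 7. Its RNF20 value was 6.08, where the other siLacZ arrays read 8.09 to 8.24. Results are therefore given for the 7 other arrays, which leaves RA/siLacZ with 1 array, and the effect of adding the array back is given where it bears on a gene. After siRNF20 the RNF20 value differed by -1.94 log2 units in DMSO (SE 0.23) and by -2.02 in RA (SE 0.29), and in DMSO the differences of 28 of its 28 rows were below 0. Neither difference passed the test over all genes (limma adjusted p = 0.237 and 0.110); with the GF number as a replicate block both did (-1.94, adjusted p = 0.00152, and -2.19, 0.00287), and so did the RA difference when only the arrays of that comparison were fitted (0.00356). The 10 embryonal carcinoma genes listed, NANOG and POU5F1 among them, had a median log2 value of 9.77 to 9.84 on the 4 DMSO arrays. On the 3 RA arrays it was 8.01 to 8.65, and the median row of an array lay at 4.10 to 4.11. LIN28A, also listed, read 11.50 to 11.71 in DMSO and 11.44 to 11.85 in RA, so that its groups overlapped.

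AP-2 proteins bind GC-rich palindromes as dimers and act in trophoblast, surface ectoderm, neural crest and germ cells; TFAP2A is long known as an RA-inducible gene of teratocarcinoma cells. GATA factors bind the letters GATA through zinc fingers: GATA2 and GATA3 are known from blood, trophoblast and the sympathetic lineage, and GATA4 and GATA6 from primitive endoderm, gut and heart. CDX2, a homeodomain factor, and EOMES, a T-box factor, belong to trophoblast and to the early mesoderm and endoderm, and HAND1, a basic helix-loop-helix factor, to giant trophoblast cells and the heart.

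The DNA before TFAP2A and GATA3 is shown because these were the members whose gene values rose. From the RefSeq promoter table (GRCh38.p14) 14 start sites of 7 members were used; TFAP2C had no entry, and the promoters of GATA4 and GATA6 were not used here. The 250 bases before the outermost start of each gene follow, with capitals marking a motif match. The TFAP2A stretch is chr6:10419660-10419909, minus strand, and the GATA3 stretch is chr10:8045083-8045332, plus strand.
TFAP2A: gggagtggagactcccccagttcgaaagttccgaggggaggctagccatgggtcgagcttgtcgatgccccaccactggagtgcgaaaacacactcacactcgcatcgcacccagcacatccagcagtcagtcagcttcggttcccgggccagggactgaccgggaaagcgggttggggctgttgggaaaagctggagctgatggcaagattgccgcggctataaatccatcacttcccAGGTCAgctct
GATA3: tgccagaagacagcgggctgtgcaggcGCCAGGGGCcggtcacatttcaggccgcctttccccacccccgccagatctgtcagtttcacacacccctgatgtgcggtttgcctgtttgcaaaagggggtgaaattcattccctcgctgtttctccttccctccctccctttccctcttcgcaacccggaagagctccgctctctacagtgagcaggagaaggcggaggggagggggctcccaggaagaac
The capitals of TFAP2A mark AGGTCA, the half-site read by nuclear receptors such as the RA receptors, 11 bases before the start. The other TFAP2A start of the table had no match. In GATA3 the capitals mark the AP-2 palindrome GCCNNNGGC, 223 bases before the start, and 3 of the 6 GATA3 starts in the table had such a match. GATA2 and HAND1, members whose gene values passed no test, had matches too. GCCNNNGGC lay before both GATA2 starts of the table and 72 bases before the HAND1 start. AGGTCA lay 240 bases before a GATA2 start. Both strands were searched, and the palindrome reads the same on both. The same windows were searched for AGATAA, which GATA factors bind. A variant of the half-site, AGTTCA, was searched as well. Of 35116 promoters of this length in the table, 19.8% held GCCNNNGGC, 12.1% AGGTCA, 9.17% AGATAA and 8.8% AGTTCA, so that matches of these kinds are common.

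TFAP2A was higher on each of the 3 RA arrays than on each of the 4 DMSO arrays, as were 8.07% of all genes. Its gene value was 5.09 and 5.61 on the DMSO/siLacZ arrays and 5.16 and 5.35 on the DMSO/siRNF20 arrays (GF117 first), 6.79 on the RA/siLacZ array, and 7.75 and 7.69 on the RA/siRNF20 arrays. The DMSO groups overlapped, the RA/siLacZ array lay above them, and the RA/siRNF20 arrays lay highest. RA raised TFAP2A by 1.44 log2 units in siLacZ cells (SE 0.29, a 2.71-fold change, 1 array against 2, adjusted p = 0.0255) and by 2.47 in siRNF20 cells (SE 0.24, 5.53-fold, 2 against 2, adjusted p = 0.000455). An adjusted p is from limma with Benjamini-Hochberg adjustment over all genes, and a gene was called below 0.05. RA calls were made for 3.91% of all genes in siLacZ cells and 3.92% in siRNF20 cells, with 1.88% and 1.79% called higher and 2.03% and 2.13% called lower. The siLacZ call did not hold when the GF117 array of DMSO/siLacZ was left out (1.03, adjusted p = 0.225), nor without either DMSO/siRNF20 array (adjusted p = 0.0693 and 0.0653) or with all 8 arrays (1.31, 0.440), and the siRNF20 call was lost with all 8 arrays (2.72, 0.207). Other treatments of the rows moved TFAP2A too. The siLacZ call was lost with no filter on dim rows (1.60, adjusted p = 0.117), with an offset of 16 before log2 (1.10, 0.0573) and with the mean over rows (1.14, 0.0533). With only the rows brighter than the upper quartile row both calls were lost (0.64, adjusted p = 0.443, and 1.19, 0.0620). In bulk RNA more expressing cells and more RNA per cell cannot be told apart.

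**Figure D1:**
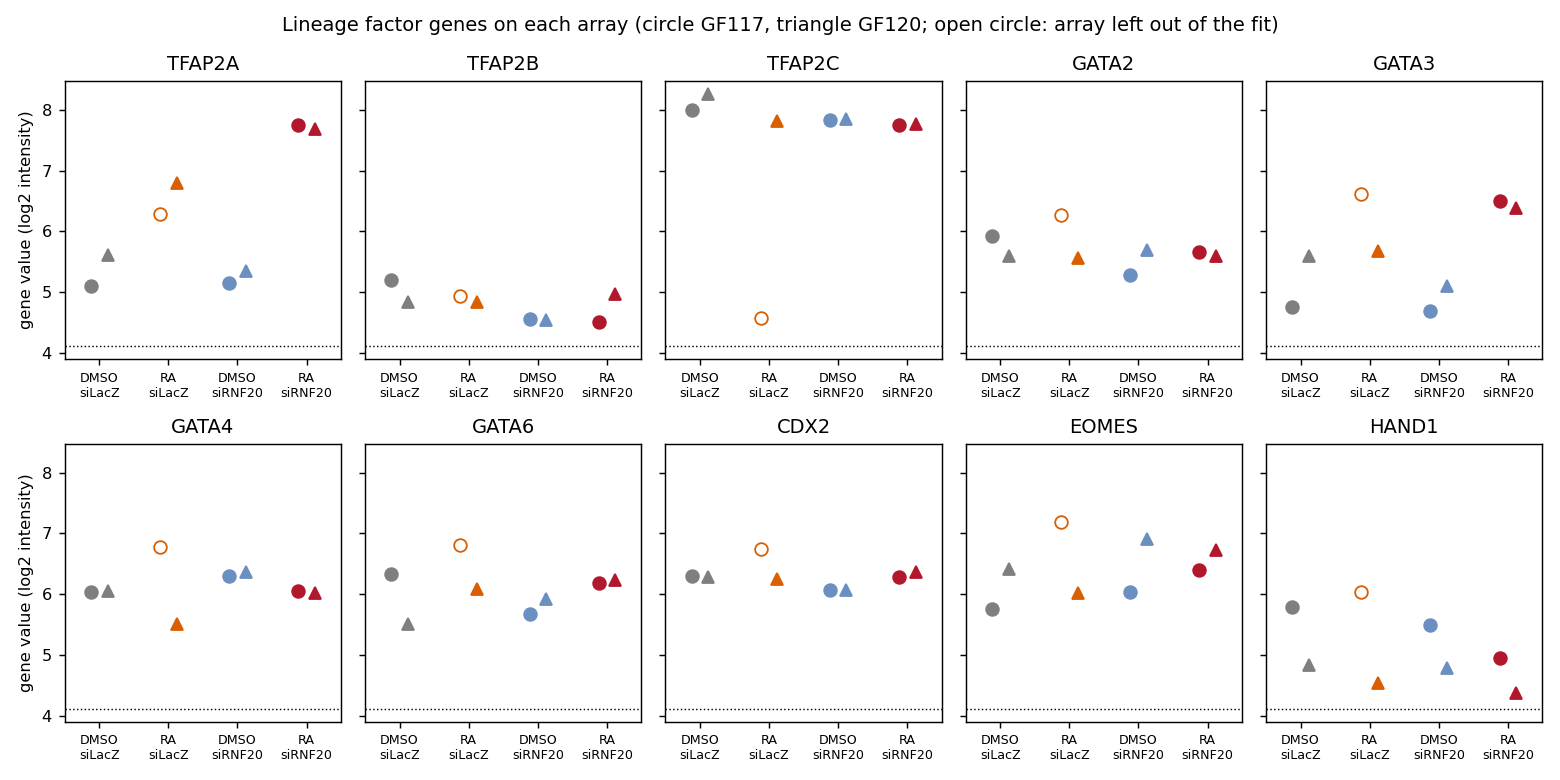
Gene value (log2 intensity, y axis) of each of the 10 genes on each of the 8 arrays, by group (x axis). Filled circles are GF117 arrays, triangles GF120 arrays, the open circle the array left out of the fit, and the dotted line the median array row; TFAP2A reached 7.75 and GATA3 6.49 on RA/siRNF20 arrays, while CDX2 stayed between 6.06 and 6.36 on the 7 arrays.

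The rows of TFAP2A did not move alike. Of 25 rows 16 were brighter than the median row. In siRNF20 cells their RA differences ran from -0.07 to 4.33 with a median of 2.11, 11 of 16 were at least 2-fold higher (3.34% of all rows were) and 10 of 16 passed the test over 277621 rows, where 0.924% of all rows were called higher. In siLacZ cells they ran from -1.07 to 3.96 with a median of 0.75, 7 were at least 2-fold higher (5.32% of all rows) and 0 passed the test, with 0.935% of all rows called higher. Some of these rows were dim in DMSO and were kept through their RA arrays. With no filter on dim rows 3 of 25 TFAP2A rows passed in siRNF20 cells, where 0.294% of all rows were called higher. Probe set 2941486 was one of the rows that rose, with log2 values of 4.54 and 5.25 in DMSO/siLacZ, 4.38 and 4.86 in DMSO/siRNF20, 6.42 on the RA/siLacZ array, and 8.14 and 8.04 in RA/siRNF20. Probe set 2941518 read the same gene at 7.51 to 8.10 on the 4 DMSO arrays and 8.05 to 8.20 on the 3 RA arrays, so that its groups overlapped. Of the 16 rows kept, 9 had every RA array above every DMSO array, against 6.97% of all rows kept, and the gene's median is taken over both kinds of row.

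The other AP-2 genes passed no test. TFAP2C, the member of trophoblast and germ cells, read 8.0 and 8.27 in DMSO/siLacZ, 7.84 and 7.85 in DMSO/siRNF20, 7.81 on the RA/siLacZ array, and 7.74 and 7.77 in RA/siRNF20. The 3 RA arrays lay below the 4 DMSO arrays, as they did for 12.6% of all genes, and the gap between RA and DMSO arrays was narrow. The RA difference was -0.32 in siLacZ cells (95% interval -0.80 to 0.16, adjusted p = 0.542) and -0.09 in siRNF20 cells (-0.48 to 0.31, 0.894). Of its 12 rows 5 had every RA array below every DMSO array, against 9.72% of all rows. On the left-out array TFAP2C read 4.58. TFAP2B, a factor of neural crest and kidney, read 4.51 to 5.21 on the 7 arrays with overlapping groups. Its RA difference was -0.18 in siLacZ cells (-1.02 to 0.66) and 0.18 in siRNF20 cells (-0.50 to 0.87).

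GATA3 was the other member whose gene value rose, and the call was in siRNF20 cells. It read 4.76 and 5.59 in DMSO/siLacZ, 4.68 and 5.11 in DMSO/siRNF20, 5.68 on the RA/siLacZ array, and 6.49 and 6.39 in RA/siRNF20. The RA/siLacZ array was 0.09 above the GF120 DMSO/siLacZ array, while the RA/siRNF20 arrays stood clear of all others. In siRNF20 cells RA raised GATA3 by 1.55 log2 units (SE 0.31, 2.92-fold, 2 arrays against 2, adjusted p = 0.0246). In siLacZ cells the difference was 0.51 (SE 0.38, 95% interval -0.35 to 1.36) and was not called. The left-out array, at 6.62, was 1.86 above the GF117 DMSO/siLacZ array. Because that array stood apart from all others, its value is not read as an RA response. The siRNF20 call was lost without any single array of its 4 (1.33 to 1.76, adjusted p = 0.0503 to 0.176) and with all 8 arrays (1.55, adjusted p = 1.00). With the rows brighter than the upper quartile row alone the difference was 0.51 in siRNF20 cells (adjusted p = 0.397) and -0.77 in siLacZ cells.

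Among the 14 GATA3 rows, all of them brighter than the median row, the siRNF20 differences ran from -0.23 to 2.27. At least 2-fold higher were 5 of 14, against 3.34% of all rows. With no filter on dim rows among all genes 0 of 14 passed, where 0.294% of all rows were called higher. With the filter 1 passed, where 0.924% of all rows were called higher. That row, probe set 3234300, read 4.56 and 3.87 in DMSO/siLacZ, 3.88 and 4.16 in DMSO/siRNF20, 4.95 on the RA/siLacZ array, and 6.18 and 6.37 in RA/siRNF20. Its RA arrays were all above its DMSO arrays, as for 6 of the 14 rows, against 6.97% of all rows.

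GATA6, a factor of primitive endoderm, had a gene value that did not pass the test and single rows that moved widely. Its gene value was 6.33 and 5.50 in DMSO/siLacZ, 5.66 and 5.92 in DMSO/siRNF20, 6.08 on the RA/siLacZ array, and 6.18 and 6.23 in RA/siRNF20. The GF117 DMSO/siLacZ array was the highest of the 7, so that the groups overlapped. The RA difference was 0.16 in siLacZ cells (95% interval -0.62 to 0.95, adjusted p = 0.889) and 0.41 in siRNF20 cells (-0.23 to 1.06, 0.594).

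Of 15 GATA6 rows above the median row, 5 had every RA array above every DMSO array, against 6.97% of all rows kept. They were the last 5 of the 15 in probe set number. Probe set 3781278 read 2.42 and 3.44 in DMSO/siLacZ, 3.19 and 2.79 in DMSO/siRNF20, 6.02 on the RA/siLacZ array, and 6.18 and 5.57 in RA/siRNF20. Probe set 3781279 read 2.71 and 3.91, 3.27 and 2.12, 5.94, and 6.10 and 5.54 in the same order. In siRNF20 cells 0.924% of all rows were called higher. There the differences of probe sets 3781278 and 3781279 were 2.88 and 3.12, and both passed the test over rows. Their DMSO values lay under the limit for dim rows of 3.97, so that they were kept through their RA arrays alone, and with no filter on dim rows 0 of 19 GATA6 rows passed. The calls were also lost without the RA/siLacZ array and without any single siRNF20 array. Probe set 3781249 was one of the other 10 rows, with 8.54 to 9.81 on the DMSO arrays and 8.88 to 9.10 on the RA arrays.

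**Figure D2:**
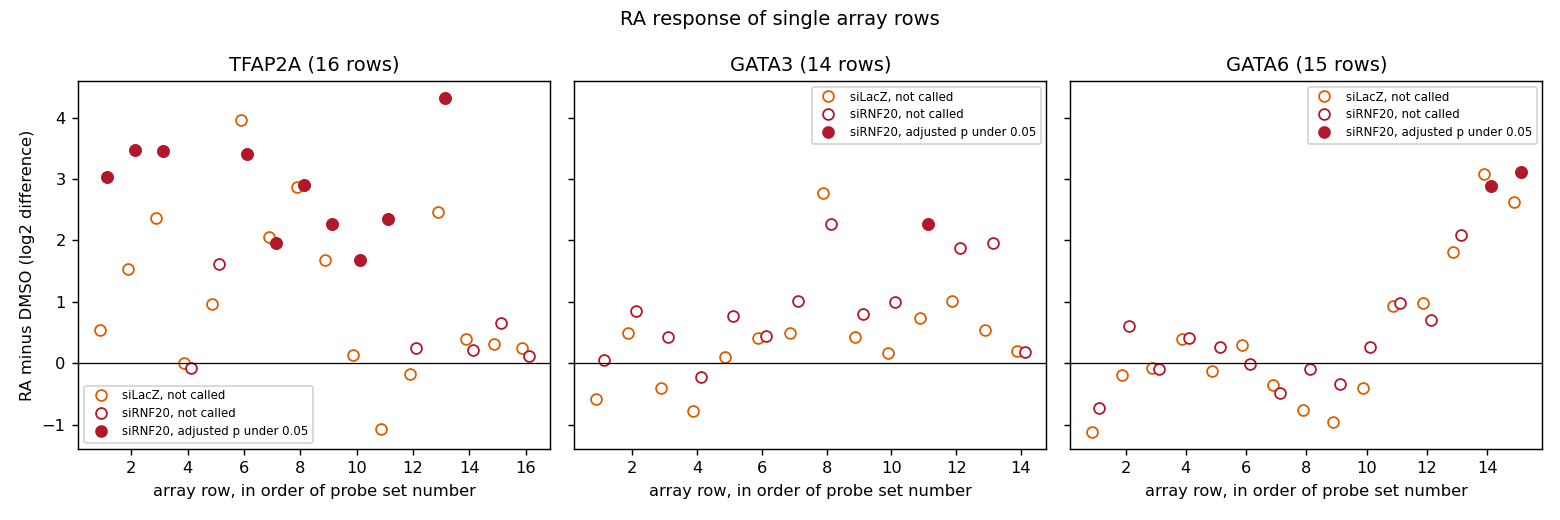
RA minus DMSO difference (log2, y axis) of each array row brighter than the median row for TFAP2A, GATA3 and GATA6, in order of probe set number (x axis), for siLacZ and siRNF20 cells. Filled points passed the test over all rows: 10 of TFAP2A, 1 of GATA3 and 2 of GATA6 in siRNF20 cells. With no filter on dim rows it was 3, 0 and 0, and the share of all rows called higher went from 0.924% to 0.294%. Some filled rows, both GATA6 rows among them, were kept only through their RA arrays. In each gene other rows lie near 0.

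GATA4 and GATA2 passed no test. GATA4, a partner of GATA6 in endoderm and heart, read 6.04 and 6.06 in DMSO/siLacZ, 6.29 and 6.37 in DMSO/siRNF20, 5.51 on the RA/siLacZ array, and 6.05 and 6.01 in RA/siRNF20. The RA/siLacZ array was the lowest and the DMSO/siRNF20 arrays the highest. The RA difference was -0.54 in siLacZ cells (95% interval -1.10 to 0.02, adjusted p = 0.333) and -0.30 in siRNF20 cells (-0.76 to 0.16, 0.583). With all 8 arrays the siLacZ difference was 0.31. GATA2 read 5.29 to 5.93 on the 7 arrays, and its lowest and highest arrays were both from DMSO. Its RA difference was -0.19 in siLacZ cells (-0.89 to 0.50) and 0.14 in siRNF20 cells (-0.42 to 0.71).

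CDX2, EOMES and HAND1 passed no test either. The blood markers, genes of another lineage, had a median log2 value of 4.71 to 5.82 on the 7 arrays. Whether the gene values of CDX2, EOMES, HAND1, GATA2 and GATA4 mark expression or background was not tested. The rows of CDX2 differed widely, with 2.68 to 5.95 in probe set 3507160 and 11.36 to 11.86 in probe set 3507159. The CDX2 gene value, a median of 9 rows, was steady: the 7 arrays spanned 0.29 log2 units, at percentile 2.59 of all genes tested. It read 6.30 and 6.28 in DMSO/siLacZ, 6.06 and 6.07 in DMSO/siRNF20, 6.25 on the RA/siLacZ array, and 6.29 and 6.36 in RA/siRNF20, and RA and DMSO arrays overlapped. Its RA difference was -0.05 in siLacZ cells (95% interval -0.59 to 0.50) and 0.26 in siRNF20 cells (-0.19 to 0.70). EOMES read 5.75 and 6.41 in DMSO/siLacZ, 6.04 and 6.91 in DMSO/siRNF20, 6.02 on the RA/siLacZ array, and 6.40 and 6.73 in RA/siRNF20. In each of the 3 groups with both numbers its GF120 array was the higher one, and the RA differences were -0.06 (-0.96 to 0.84) and 0.09 (-0.65 to 0.83). HAND1 read 5.78 and 4.84, 5.49 and 4.78, 4.54, and 4.95 and 4.36 in the same order of groups. Here the GF117 array was the higher one in those groups, only 3 of 7 rows were brighter than the median row, and the RA differences were -0.77 (-1.87 to 0.33) and -0.48 (-1.38 to 0.42).

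**Figure D3:**
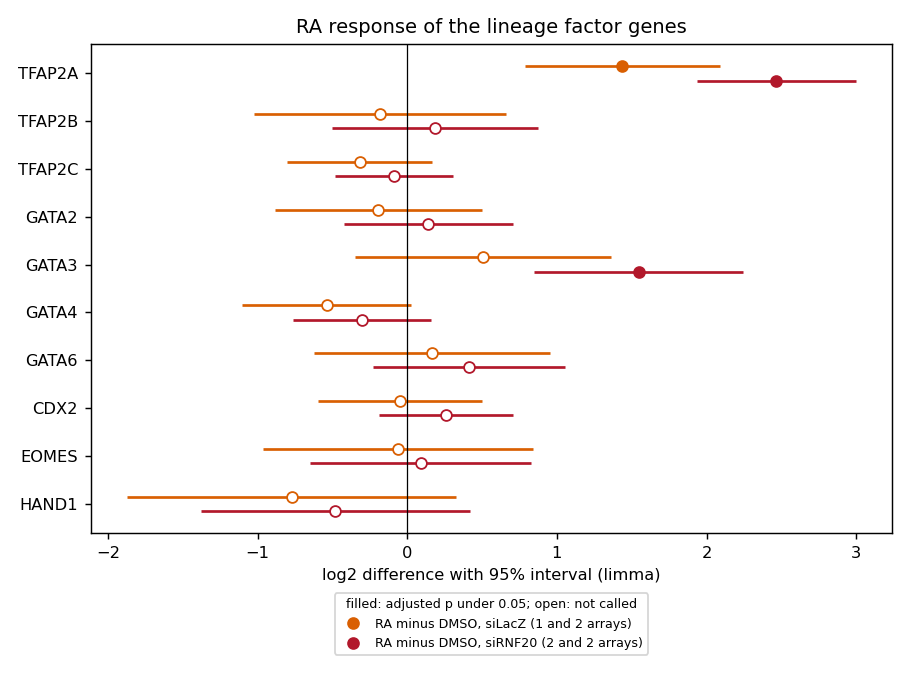
RA minus DMSO difference (log2, x axis) with limma's 95% interval for the 10 genes (y axis), in siLacZ cells (1 RA and 2 DMSO arrays) and siRNF20 cells (2 and 2). Filled points passed the test over all genes: TFAP2A at 1.44 and 2.47, and GATA3 at 1.55 in siRNF20 cells; every other interval includes 0.

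Depletion of RNF20 changed none of the 10 genes past the test, in a comparison in which limma called 0 of 18732 genes in DMSO and 2 in RA, which is 0.0107%. Of the members' single rows 0 were called, and of all rows 0 in DMSO and 2 in RA, which is 0.00072%. In DMSO the largest differences in size were -0.46 for TFAP2B (SE 0.31) and 0.39 for EOMES (SE 0.33), and TFAP2A differed by -0.10 (95% interval -0.63 to 0.43). In RA the 2 RA/siRNF20 arrays exceeded the single RA/siLacZ array by 0.93 in TFAP2A (SE 0.29, adjusted p = 0.454), 0.76 in GATA3 (SE 0.38, 0.660), 0.54 in EOMES (SE 0.40, 0.775) and 0.52 in GATA4 (SE 0.25, 0.653). With all 8 arrays these became 1.12 in TFAP2A, 0.29 in GATA3, -0.40 in EOMES and -0.30 in GATA4.

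The RA response of TFAP2A was larger in siRNF20 than in siLacZ cells by 1.03 log2 units (SE 0.37, 95% interval 0.19 to 1.87), and that of GATA3 by 1.04 (SE 0.49, -0.07 to 2.15). Neither difference between responses passed the test (adjusted p = 0.999 for both), which called 0 of 18732 genes. The GATA3 call in siRNF20 cells alone therefore does not show that the backgrounds differ. Within the GF120 arrays the TFAP2A response was 1.18 in siLacZ and 2.34 in siRNF20 cells, and that of GATA3 0.09 and 1.28. Within the GF117 arrays the response in siRNF20 cells was 2.59 for TFAP2A and 1.81 for GATA3. The left-out array lay above the GF117 DMSO/siLacZ array by 1.19 in TFAP2A and 1.86 in GATA3. Since that array stood apart from the others, these values are not read as responses.

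Over the 7 arrays the gene values of TFAP2A and GATA3 ran together (Pearson r = 0.955), while TFAP2A and GATA6 had r = 0.471 and TFAP2A and TFAP2C r = -0.549. These correlations describe 7 arrays that share a cell line and the RA treatment. Among 5308 genes whose values spanned at least 1 log2 unit, the 5 most like TFAP2A were TOB1 (r = 0.987), ZFPM2 and SMTNL2 (0.984 each), FZD7 (0.980) and CALCR (0.979). TOB1, which encodes an antiproliferative protein, read 7.69 to 7.89 on the DMSO arrays, 8.60 on the RA/siLacZ array, and 9.05 and 9.16 in RA/siRNF20. ZFPM2 encodes a cofactor of GATA4 and read 4.16 to 4.32 on the DMSO arrays, 4.70 on the RA/siLacZ array, and 5.30 and 5.13 in RA/siRNF20. The 5 most like GATA3 were RBKS (0.967), RPRM (0.965), DIRAS3 (0.961), FZD7 (0.959) and TFAP2A. FZD7, a WNT receptor on both lists, read 7.95 to 8.53 on the DMSO arrays, 9.25 on the RA/siLacZ array, and 9.71 and 9.46 in RA/siRNF20.

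Relatives and cofactors of the 10 genes mostly passed no test. Of 7 AP-2 relatives and cofactors, 0 were called in siLacZ cells and 1 in siRNF20 cells. That gene was CITED2, a coactivator of AP-2 proteins, which read 7.46 to 7.87 on the DMSO arrays, 8.24 on the RA/siLacZ array, and 8.39 and 8.25 in RA/siRNF20, a rise of 0.78 (SE 0.18, adjusted p = 0.0477). The AP-2 genes TFAP2D and TFAP2E differed by 0.40 and -0.13 in siRNF20 cells. Among 7 GATA relatives and cofactors and 11 relatives of HAND1, CDX2 and EOMES, 0 were called in either background. Over all genes 3.92% were called in siRNF20 cells, so that 0 of 7 and 0 of 11 are near that share. The median RA difference of the GATA group was -0.16 in siLacZ and 0.02 in siRNF20 cells, and the medians of all genes were -0.05 and -0.03.

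No marker of trophoblast, where TFAP2A, TFAP2C, GATA2 and GATA3 are known to act together, passed the test in either background. Of 20 on the list 16 were tested and 0 were called. In siRNF20 cells 3.92% of all genes were called, and a like share in siLacZ cells. Counts of 0 among 16 trophoblast or 15 endoderm markers are near that share. The median RA difference of the trophoblast markers was -0.20 in siLacZ and -0.05 in siRNF20 cells. Their median log2 value was 4.99 to 5.12 on the DMSO arrays and 5.15 to 5.27 on the RA arrays. The summed intensity of these markers was 864 to 929 on the DMSO arrays and 695 to 804 on the RA arrays. Without TEAD4, left out after its values were seen, it was 529 to 602 and 499 to 622, so that the groups overlapped. KRT7, a keratin of trophoblast, read 5.66 to 6.0 on the DMSO arrays and 5.54 to 5.58 on the RA arrays. Its RA differences of -0.35 in siLacZ and -0.14 in siRNF20 cells were not called, and 12.6% of all genes had their RA arrays below. ENPEP went the other way, with 4.79 to 5.12 on the DMSO arrays and 5.18 to 5.70 on the RA arrays, as did 8.07% of all genes. In siLacZ cells the differences of single markers ran from -0.90 in TEAD4, a factor upstream of CDX2 in the mouse embryo, to 0.91 in ENPEP, a membrane peptidase. In siRNF20 cells they ran from -1.04 in INSL4, a placental hormone gene, to 0.26 in ELF5, an ETS factor of trophoblast. Of 15 endoderm markers 0 were called, with medians of 0.17 and 0.08, and SOX17 and FOXA2 differed by -0.25 and 0.21 in siRNF20 cells. Single endoderm markers ran from -1.19 in TTR to 0.81 in COL4A2 in siLacZ cells, and from -0.35 in SOX7 to 0.70 in CXCR4 in siRNF20 cells. The summed intensity of the endoderm markers was 1787 to 1941 on the DMSO arrays and 2038 to 2283 on the RA arrays. The sums were not tested.

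Mesoderm markers moved both ways. Of 17 tested, RA raised 3 and lowered 1 in siLacZ cells, and raised 2 and lowered 1 in siRNF20 cells. The receptor gene PDGFRA rose by 2.65 (SE 0.32) and 1.60 (SE 0.26), and ISL1, a LIM homeodomain factor, by 1.83 and 1.92. MEF2C, a muscle and neural factor, rose by 1.64 in siLacZ cells (SE 0.39), a call close to the limit that rests on 1 RA array. In siRNF20 cells MEF2C differed by 1.24 (SE 0.32) and was not called. The receptor gene KDR changed by -3.05 (SE 0.33) and -3.39 (SE 0.27), from 6.67 to 7.33 on the DMSO arrays to 3.69 to 4.04 on the RA arrays. The median of the list was -0.14 and 0.05. Of all genes 1.79% were called higher and 2.13% lower in siRNF20 cells. Of 7 markers of the sympathetic and V2b lineages, in which GATA2 and GATA3 act, 0 were called.

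Ectoderm and neural crest, where TFAP2A is best known, gave 0 higher and 1 lower of 21 tested in siLacZ cells, and 2 higher and 1 lower in siRNF20 cells. GRHL3, a factor of surface ectoderm, read 4.8 to 5.59 on the DMSO arrays, 6.36 on the RA/siLacZ array, and 7.11 and 6.55 in RA/siRNF20, a rise of 1.80 in siRNF20 cells (SE 0.27, adjusted p = 0.00533). DLX5, a homeodomain factor of the preplacodal region and neural crest, rose by 1.63 in siRNF20 cells (SE 0.36, adjusted p = 0.0388) and differed by 0.24 in siLacZ cells. ETS1 changed by -3.43 and -3.24. The median of the list was -0.11 in siLacZ and 0.08 in siRNF20 cells. Among all genes 1.79% were called higher and 2.13% lower in siRNF20 cells.

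Of 7 germ cell markers tested, 0 were higher and 1 lower in siLacZ cells, and 1 was higher and 1 lower in siRNF20 cells. PRDM1, which acts with TFAP2C in primordial germ cells, read 3.97 to 4.61 on the DMSO arrays, 5.80 on the RA/siLacZ array, and 6.31 and 5.73 in RA/siRNF20. Its rise was 1.84 in siRNF20 cells (SE 0.31, adjusted p = 0.0102), and the siLacZ difference of 1.33 did not pass. PRDM14 changed by -2.69 and -2.16. The shares of all genes called in siRNF20 cells were 1.79% higher and 2.13% lower. Of the 10 embryonal carcinoma genes 0 rose and 5 fell in siLacZ cells, and 0 rose and 6 fell in siRNF20 cells, with changes of -3.82 (SE 0.19) and -2.76 (SE 0.16) in NANOG, -3.26 and -2.02 in CRIPTO, and -1.83 and -2.46 in POU5F1. Of 6 fibroblast markers RA raised COL1A1 by 1.30 in siLacZ cells and lowered THY1 in both, and of 5 blood markers 0 were called. The part of changes in cell makeup in any of these values was not tested.

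**Figure D4:**
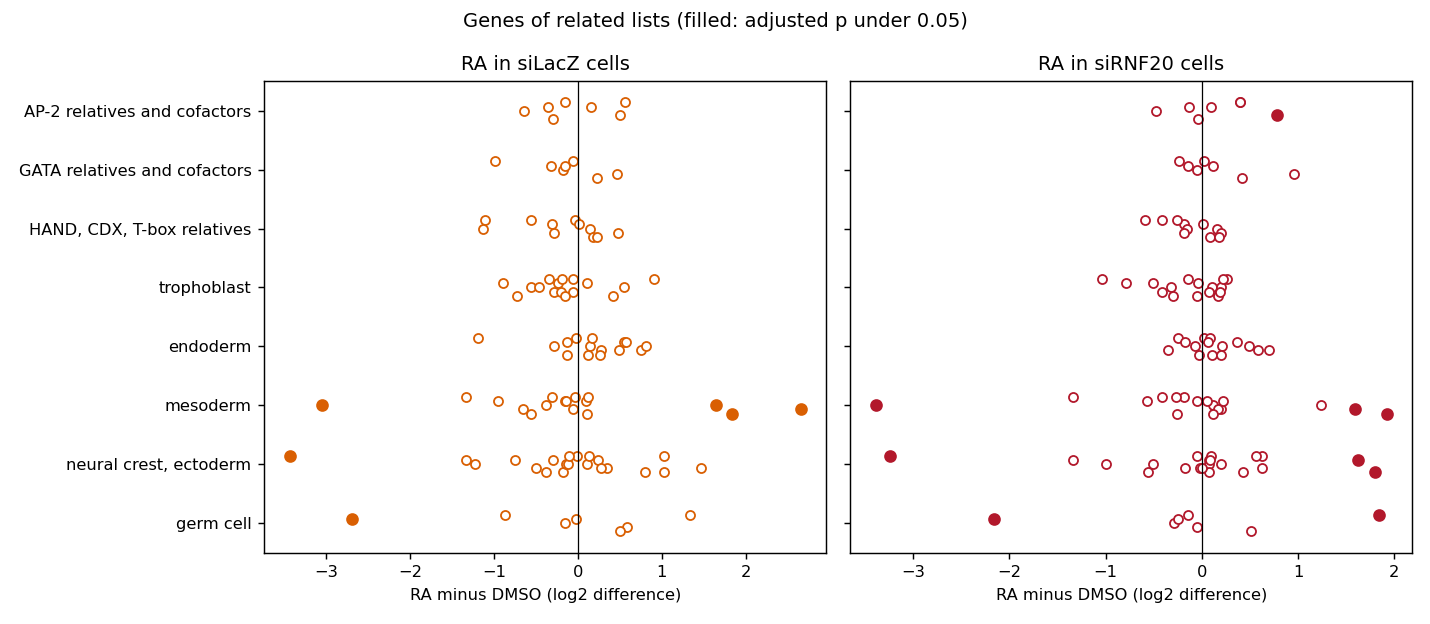
RA minus DMSO difference (log2, x axis) of each gene tested in 8 lists related to the 10 genes (y axis), in siLacZ and siRNF20 cells; filled points passed the test over all genes. No trophoblast, endoderm, GATA or HAND, CDX and T-box relative is filled, CITED2 is the 1 filled AP-2 relative, and KDR and ETS1 lie below -3 in both panels.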

How the data were processed

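Biotin-labelled total RNA was hybridised, per the labels' protocols. The deposited files hold linear intensities for every row of an array. The authors' background correction and normalization are not given in the sources used here. Of 1384231 rows, 369498 were listed in the platform's gene table, 354600 with 1 gene symbol, and the 14898 with several were left out. Older symbols were updated through the RefSeq gene table. Intensities were taken as log2 with no further normalization. Rows with a mean at or below the median row (log2 3.97) were set aside as dim, and the median of a gene's other rows was its value. limma (version 3.58.1, R 4.3.3, with version 1.17.8 of data.table) fitted the 4 group means to 7 arrays with an intensity trend, with 5 contrasts, two-sided tests and Benjamini-Hochberg adjustment. The single RA/siLacZ array is thereby assumed to vary like the others. The same fit was run over 277621 rows. The code was tested on simulated data, and figures were drawn with Python 3.11.15, matplotlib 3.10.9 and pandas 2.3.3. The 7 arrays differ little in brightness, and their number limits the precision.

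The members, the gene lists, the tests and the use of 7 arrays were chosen with earlier results of these data known. Named genes were the 10 members, RNF20 and up to 3 called genes in each direction of each list. The 5 genes most correlated with each called member over the 7 arrays were named too. Other genes of the lists were named after their values were seen, as were the single rows. These genes were KRT7, TEAD4, ENPEP, INSL4, ELF5, SOX17, FOXA2, TTR, COL4A2, SOX7, CXCR4, TFAP2D, TFAP2E and LIN28A. The lists were AP-2 and GATA relatives and cofactors, relatives of HAND1, CDX2 and EOMES, and markers of trophoblast, endoderm, mesoderm, ectoderm and neural crest, germ cells, the sympathetic and V2b lineages, embryonal carcinoma, fibroblasts and blood. The GF numbers were not used as a pairing, since the labels do not say what they mark. Deviations from the group means of arrays with the same number correlated at 0.297 to 0.364 between groups. Genes of 1 family share sequence, so that rows of near relatives are uncertain to that extent.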

Additional observations from a re-analysis of the deposited data

How the results depend on the processing

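The calls rest on few arrays. RA/siLacZ has 1 array in the fit, and an array row that is dim in DMSO enters a gene's value or not with the filter chosen. Of the 10 genes, 1 was called for RA in siLacZ cells; it was 0 with all 8 arrays, with no filter on dim rows, with rows above the upper quartile row, with the mean over rows in place of the median, and with an offset of 16 before log2, and 0 to 1 when an array was left out. In siRNF20 cells 2 were called, 0 with all 8 arrays and 0 with the stricter filter, and 1 to 2 when an array was left out. No member was called in the other comparisons under any alternative. A replicate block for the GF number left 1 and 2 members called and moved TFAP2A to 1.33 (adjusted p = 0.00601) in siLacZ and 2.47 (7.89e-06) in siRNF20 cells, and GATA3 to 1.55 (0.00185) in siRNF20 cells.

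Single rows were less steady. In siLacZ cells 0 rows of members were called, 8 with the replicate block, 1 with the stricter filter, 4 with the offset and 0 to 3 when an array was left out. In siRNF20 cells it was 13, and 0 with all 8 arrays, 3 with no filter, 6 with the stricter filter, 4 without the intensity trend, 18 with the replicate block, 18 with the offset, and 3 to 14 when an array was left out. TFAP2A was called in 7 of 15 alternatives in siLacZ cells (0.64 to 1.90) and in 14 of 16 in siRNF20 cells (1.19 to 2.81), and GATA3 in 10 of 16 in siRNF20 cells (0.51 to 1.76).

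Over all genes, the 733 RA calls in siLacZ cells became 0 with all 8 arrays, 1792 with the replicate block and 456 without the intensity trend, and 317 to 970 when an array was left out. The 734 in siRNF20 cells became 0 with all 8 arrays, 1959 with the replicate block, and 324 to 720 when an array was left out. For siRNF20 in RA, 2 genes were called, 232 with the replicate block, 48 with the arrays of the contrast alone, 1 without the intensity trend and 0 under the other settings that used the RA/siLacZ arrays, except 2 without the GF120 RA/siRNF20 array. The block called 1 gene, RNF20 itself, for siRNF20 in DMSO and 4 for the difference between responses, where 0 were called without it. Leaving out the GF117 DMSO/siRNF20 array gave 1 in DMSO.

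Of 47 values of members that passed no test, 37 took the other sign under some alternative. With all 8 arrays 20 of 50 member values did so.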
